A study of Mus musculus with 8 samples.

Results

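Of the 47643 genes in the quadriceps RNA-seq table, 5 were examined here: the adult hemoglobin genes Hba-a1, Hba-a2, Hbb-bs and Hbb-bt, and Alas2. They were taken from the table by gene name, and all 5 passed the filter on low values. The libraries came from snap-frozen quadriceps muscle of mice labelled C57BL/6 and, per the methods of the study, backcrossed to C57BL/6J, with 1 library per mouse. By their labels, 4 were Nup210-/- and 4 were Nup210+/+. Nup210 encodes a protein of the nuclear pore. The mice labelled Nup210-/- carried a floxed Nup210 allele recombined by a Cre under the Hprt promoter, so the deletion was constitutive and not limited to muscle, and the age and sex of the mice used for RNA-seq are not given in the sources used here.

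Hemoglobin is the oxygen carrier of red blood cells and is built from alpha and beta globin chains, each holding a heme. Hba-a1 and Hba-a2 encode alpha chains, and Hbb-bs and Hbb-bt encode the adult beta chains of the beta-globin haplotype carried by C57BL strains. Alas2 encodes the erythroid form of 5-aminolevulinate synthase, the first enzyme of heme synthesis, and its relative Alas1 serves other tissues. Mature mammalian red cells have no nucleus and make no new RNA, but reticulocytes, the youngest red cells in blood, still hold globin and Alas2 mRNA. Muscle fibers are not a known site of hemoglobin production, and whole muscle contains blood within its vessels.

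On mm10 in the GENCODE M21 annotation, Hba-a1 (ENSMUSG00000069919) lies at chr11:32283511-32284465 and Hba-a2 (ENSMUSG00000069917) at chr11:32296489-32297298, both on the plus strand and 12023 bases apart. Hbb-bs (ENSMUSG00000052305) lies at chr7:103826534-103828096 and Hbb-bt (ENSMUSG00000073940) at chr7:103812524-103813996, both on the minus strand and 12537 bases apart. Each of these genes has 3 exons. Alas2 (ENSMUSG00000025270) lies at chrX:150547375-150570638 on the plus strand with 11 exons, and its exons overlap Apex2 and Mir3620 on the opposite strand. The libraries were directional, but whether the counting used strand is not given in the sources used here.

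The members of a globin pair are nearly the same sequence, which bears on how far their TPM can be told apart. The coding sequences of Hba-a1 and Hba-a2 differ at 1 of 426 bases, and those of Hbb-bs and Hbb-bt at 1 of 441 bases. The stretch around each difference is shown for that reason, from coding base 357 to 405 for the alpha genes and from 393 to 441 for the beta genes, in the direction of the transcript, with the differing base in capitals.
Hba-a1: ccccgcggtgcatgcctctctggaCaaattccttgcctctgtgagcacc
Hba-a2: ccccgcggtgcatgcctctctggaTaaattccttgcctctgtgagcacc
Hbb-bs: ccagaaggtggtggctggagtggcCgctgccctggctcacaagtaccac
Hbb-bt: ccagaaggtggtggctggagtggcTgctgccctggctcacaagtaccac
A read of 75 bases that starts at a random place in the Hba-a2 transcript lies in sequence shared with Hba-a1 for 81.0% of positions, and the share is 62.2% for Hba-a1. The share is 64.3% for Hbb-bs and 56.6% for Hbb-bt, each with the other beta gene. No window of Alas2 is shared with another member. RSEM divides shared reads between genes by an estimate, so the split within a pair is less certain than the level of the pair, and values of the summed pairs are given below for that reason.

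Promoter sequences are shown as a description of the genes, and their relation to the variation across libraries described below was not tested. The 250 bases before the RefSeq start on GRCm38.p6 are given in the direction of transcription, with matches to 4 motifs on either strand in capitals. They lie at chr11:32296242-32296491 for Hba-a2, chr7:103827929-103828178 for Hbb-bs, chr7:103813924-103814173 for Hbb-bt and chrX:150547167-150547416 for Alas2. The motifs were the GATA motif (an A or T, then the letters GATA, then an A or G), the CACCC box, the CCAAT box and, as a TATA box, the letters ATATAA. No match overlaps another in the windows shown.
Hba-a2: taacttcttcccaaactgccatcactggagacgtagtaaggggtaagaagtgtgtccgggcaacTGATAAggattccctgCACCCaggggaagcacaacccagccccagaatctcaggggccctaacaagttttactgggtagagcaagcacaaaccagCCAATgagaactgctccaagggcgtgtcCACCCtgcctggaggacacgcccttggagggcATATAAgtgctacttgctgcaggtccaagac
Hbb-bs: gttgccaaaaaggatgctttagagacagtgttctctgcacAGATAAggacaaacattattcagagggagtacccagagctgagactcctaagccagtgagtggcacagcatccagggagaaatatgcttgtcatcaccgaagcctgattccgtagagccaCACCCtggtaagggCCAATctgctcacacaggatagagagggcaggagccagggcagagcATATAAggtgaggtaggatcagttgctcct
Hbb-bt: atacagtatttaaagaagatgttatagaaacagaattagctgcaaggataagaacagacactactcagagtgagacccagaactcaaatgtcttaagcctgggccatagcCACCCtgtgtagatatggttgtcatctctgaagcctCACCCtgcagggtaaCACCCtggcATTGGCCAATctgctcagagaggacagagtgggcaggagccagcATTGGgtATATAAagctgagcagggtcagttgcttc
Alas2: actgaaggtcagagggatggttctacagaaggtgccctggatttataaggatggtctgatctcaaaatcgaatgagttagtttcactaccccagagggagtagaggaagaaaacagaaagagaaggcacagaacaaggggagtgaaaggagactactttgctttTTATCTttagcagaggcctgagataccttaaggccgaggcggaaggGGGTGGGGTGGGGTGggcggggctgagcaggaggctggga
Hba-a1 shares an identical run of 247 bases with the Hba-a2 window, whereas the longest run shared by Hbb-bs and Hbb-bt is 14 bases. The CACCC box, the CCAAT box and the TATA box letters occurred together in the windows of all 4 hemoglobin genes and in 1.36% of 32851 RefSeq promoter windows of the same length. Taken singly, the CACCC box was found in 52.0% of these windows, the CCAAT box in 33.8%, the GATA motif in 26.5% and the TATA box letters in 9.10%. The TATA box letters ended between 23 and 26 bases before the start in the 4 hemoglobin genes. Hbb-bt had no match to the GATA motif, and Alas2 had matches to that motif and to the CACCC box only. A match is a string of letters and not evidence of binding, and the GENCODE start of each of the 5 genes lies inside its RefSeq window.

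The deposited values are TPM, estimates per transcript length scaled to a total of 1000000 per library. The read depth behind them is unknown, so no counting error can be given and precision rests on the 4 mice per genotype. Between 18185 and 19357 genes were above 0 in a library. Nup210 was 10.3 ± 1.38 TPM (SD, n = 4) under the Nup210-/- label and 7.93 ± 2.06 TPM (SD, n = 4) under the Nup210+/+ label (limma adjusted p = 0.231), so its gene-level TPM did not separate the genotypes and did not check the labels, since a value for the whole gene does not show a deleted exon. All directions below rest on the labels. Nup210+/+ replicate 2 stood apart: 340 genes were more than 2 times their level in every other library there, against 12 to 84 genes in each other library. It also held RNA of granulocyte precursors, with 381.69 summed TPM of 6 genes such as Elane and Mpo against at most 2.12 elsewhere. Results that turn on this library are given with and without it.

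Hemoglobin mRNA was abundant in every library and differed several-fold between mice of 1 genotype. Hbb-bs, the most abundant of the 5 genes, was 753.23, 2152.41, 1209.06 and 520.25 TPM in Nup210+/+ replicates 1 to 4 and 610.71, 1051.55, 359.73 and 363.72 TPM in Nup210-/- replicates 1 to 4. Nup210+/+ replicate 2 was the highest, the libraries of Nup210-/- replicates 3 and 4 were the lowest, and the genotypes overlapped. Its partner Hbb-bt was 185.59, 481.23, 292.63 and 121.83 TPM in the Nup210+/+ libraries and 140.57, 237.5, 80.08 and 89.05 TPM in the Nup210-/- libraries. Hbb-bt placed the libraries in the same order as Hbb-bs, and its genotypes overlapped as well.

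The alpha genes gave nearly the same picture. Hba-a2 was 685.76, 1754.81, 1057.49 and 389.13 TPM in Nup210+/+ replicates 1 to 4 and 494.7, 935.93, 330.65 and 308.79 TPM in Nup210-/- replicates 1 to 4. Hba-a1 was 265.32, 896.61, 491.36 and 180.76 TPM in the Nup210+/+ libraries and 211.15, 452.12, 140.48 and 115.66 TPM in the Nup210-/- libraries. In both alpha genes the highest library was Nup210+/+ replicate 2, followed by Nup210+/+ replicate 3 and Nup210-/- replicate 2, and the lowest were Nup210-/- replicates 3 and 4, with overlap between the genotypes. The 4 hemoglobin genes together took between 0.0877% and 0.529% of all TPM in a library.

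Alas2 was far less abundant, at 5.07, 19.57, 11.45 and 3.67 TPM in Nup210+/+ replicates 1 to 4 and 6, 10.53, 3.65 and 2.44 TPM in Nup210-/- replicates 1 to 4. The 3 libraries with the most hemoglobin mRNA also had the most Alas2, and Nup210-/- replicate 4 had the least. As for the globins, the genotypes overlapped.

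**Figure D1:**
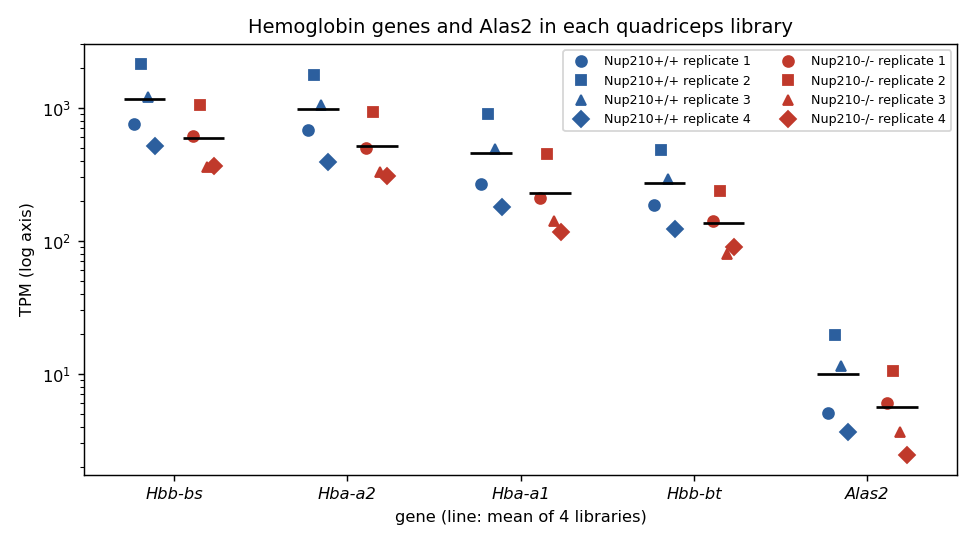
TPM of each gene on a log axis, with 1 point per library (blue, Nup210+/+; red, Nup210-/-; the marker gives the replicate) and a line at the mean of the 4 libraries. For every gene Nup210+/+ replicate 2 is the highest point and the genotypes overlap, with Hbb-bs between 359.73 and 2152.41 TPM and Alas2 between 2.44 and 19.57 TPM.

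Within each of the 8 libraries the levels per transcript length ran in the same order, Hbb-bs above Hba-a2, Hba-a1, Hbb-bt and Alas2. Hbb-bs was 1.09 to 1.34 times Hba-a2 across libraries, Hba-a2 was 1.96 to 2.67 times Hba-a1, and Hba-a1 was 1.3 to 1.90 times Hbb-bt. Between mice, however, the ranges of these neighbours overlapped, because the spread from mouse to mouse exceeded the steps between genes. Hbb-bt and Alas2 were the exception: Hbb-bt was 21.9 to 36.6 times Alas2, and their ranges did not overlap. Among all genes of a library, Hbb-bs ranked between 37 and 247 by TPM and Alas2 between 4035 and 10117.

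The 5 genes were among the most variable genes between mice of the same genotype. The SD of the log2 values within genotypes was 0.91 for Hba-a1, 0.80 for Hba-a2, 0.78 for Hbb-bs, 0.75 for Hbb-bt and 0.84 for Alas2, against a median of 0.17 over the 14229 tested genes. These SDs stood at the 96.5th to 97.7th percentile of tested genes. From the lowest to the highest library the TPM rose 5.68-fold for Hba-a2, 5.98-fold for Hbb-bs, 6.01-fold for Hbb-bt, 7.75-fold for Hba-a1 and 8.02-fold for Alas2. The highest library was Nup210+/+ replicate 2 for each gene. Among the Nup210-/- libraries alone the rise was smaller, from 2.92-fold for Hbb-bs to 4.32-fold for Alas2. The spread was of similar size in both genotypes: the coefficient of variation of TPM lay between 52.8% and 66.8% in the Nup210-/- libraries and between 58.2% and 73.0% in the Nup210+/+ libraries.

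The genes varied together. The summed alpha genes followed the summed beta genes over the 8 libraries with Pearson r = 0.99 and Spearman rho = 0.95 on the log2 scale. Without the 2 libraries farthest from the median, Nup210-/- replicate 4 and Nup210+/+ replicate 2, r was 0.99, and with the genotype means removed it was also 0.99. The 4 hemoglobin genes together followed Alas2 with r = 0.97 and rho = 0.93, with r = 0.96 without the 2 farthest libraries (Nup210-/- replicate 3 and Nup210+/+ replicate 2) and r = 0.98 with genotype means removed. These correlations describe 8 libraries that share their scaling across genes, and no p is given for sums over the chosen genes. The alpha pair and the beta pair share no window of 75 bases with each other, nor does Alas2 with either.

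**Figure D2:**
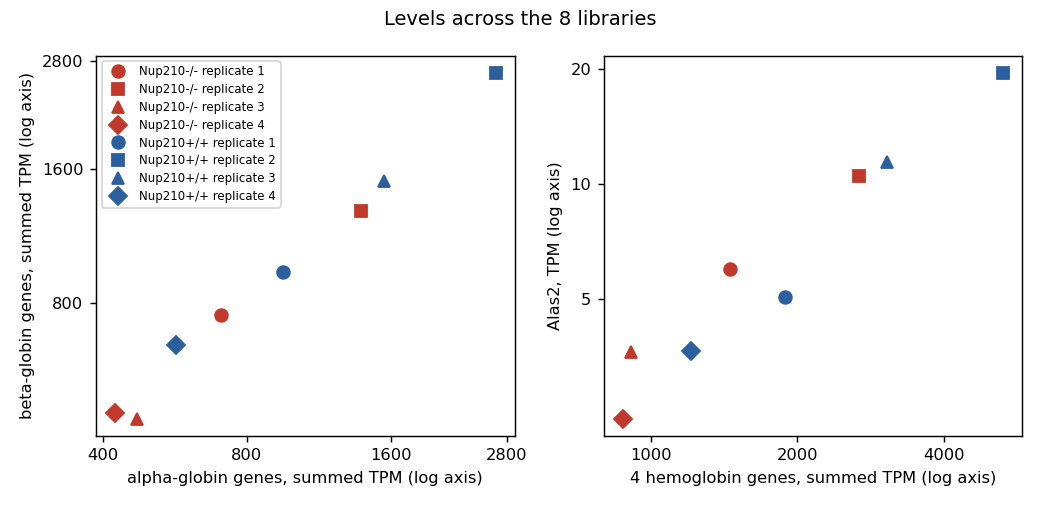
Left, summed TPM of Hbb-bs and Hbb-bt against summed TPM of Hba-a1 and Hba-a2; right, TPM of Alas2 against summed TPM of the 4 hemoglobin genes, both on log axes, with 1 point per library. The points of both genotypes lie along 1 line in each panel (r = 0.99 and r = 0.97 over 8 libraries), with Nup210+/+ replicate 2 at its upper end.

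Ratios within a library do not depend on the scaling, and they were far more even than the levels. The alpha-to-beta ratio of TPM was 1.01, 1.01, 1.03 and 0.888 in Nup210+/+ replicates 1 to 4 and 0.940, 1.08, 1.07 and 0.937 in Nup210-/- replicates 1 to 4. Alpha and beta mRNA were thus near balance per transcript length in both genotypes, with a mean ratio of 0.995 ± 0.0678 (SD, n = 8). The hemoglobin sum itself varied 6.02-fold over the 8 libraries and 3.05-fold among the Nup210-/- libraries. The Hbb-bs to Hbb-bt ratio was 4.06, 4.47, 4.13 and 4.27 in the Nup210+/+ libraries and 4.34, 4.43, 4.49 and 4.08 in the Nup210-/- libraries. Hbb-bs kept a nearly fixed lead over Hbb-bt, with a coefficient of variation of 4.11%. A ratio within a pair, beta or alpha, also rests on how RSEM divided the shared reads.

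The Hba-a2 to Hba-a1 ratio was less even, at 2.58, 1.96, 2.15 and 2.15 in the Nup210+/+ libraries and 2.34, 2.07, 2.35 and 2.67 in the Nup210-/- libraries. The 3 libraries with the most hemoglobin mRNA had ratios between 1.96 and 2.15, and the 2 with the least had 2.35 and 2.67. The libraries in between broke this order: Nup210+/+ replicate 1 had 2.58, Nup210-/- replicate 1 had 2.34 and Nup210+/+ replicate 4 had 2.15, from more to less hemoglobin mRNA. Alas2 per 1000 hemoglobin TPM was 2.68, 3.70, 3.75 and 3.03 in the Nup210+/+ libraries and 4.12, 3.93, 4.01 and 2.78 in the Nup210-/- libraries. It was the least even of the 4 ratios, with a coefficient of variation of 16.5%, and Nup210-/- replicate 4 was low for its genotype. The genotypes overlapped in all 4 ratios, and the genotype means differed by less than the larger SD in each.

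**Figure D3:**
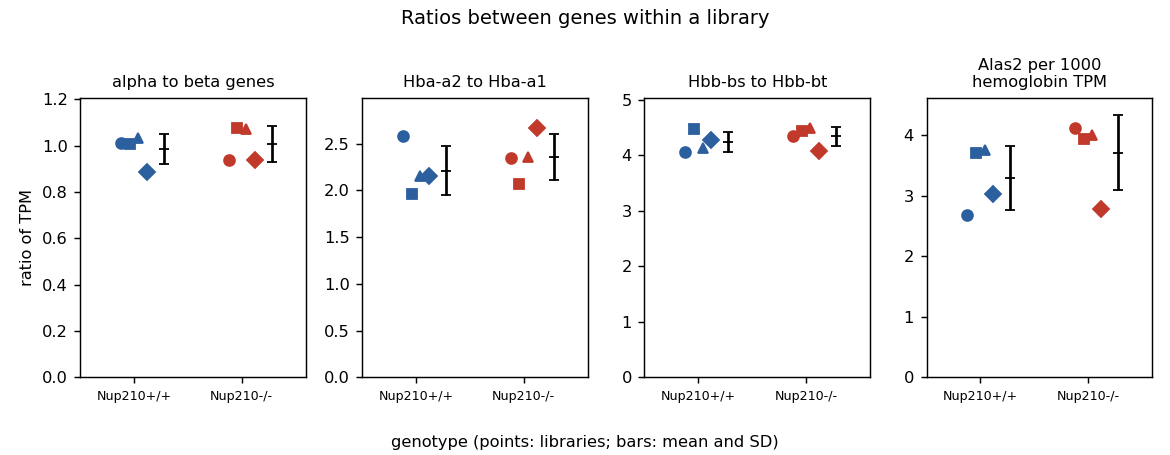
Ratios of TPM within a library, with 1 point per library (marker, replicate) and the mean ± SD of the 4 libraries of a genotype in black, on axes that start at 0. The genotypes overlap in every panel, and the alpha-to-beta ratio stays between 0.888 and 1.08 in all 8 libraries.

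Whether the genotypes differed in these genes was tested with limma over all 14229 genes on log2(scaled TPM + 1), a scale on which the change of low genes such as Alas2 is understated. None of the 5 genes passed. The mean of Hbb-bs was 596 ± 325 TPM under the Nup210-/- label and 1159 ± 722 TPM under the Nup210+/+ label (SD, n = 4 each), a ratio of 0.515. Its log2 fold change was -0.80 (SE 0.45, 95% interval -1.83 to 0.22, limma adjusted p = 0.443, unadjusted p = 0.108, exact permutation p = 0.200). The interval ran from 0.282 to 1.16 times the Nup210+/+ level, which holds both a several-fold lower level and no difference.

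The other members gave similar estimates with similar intervals. Hbb-bt averaged 136.8 ± 72.2 TPM against 270.3 ± 157 TPM, with a log2 fold change of -0.84 (95% interval -1.82 to 0.15, limma adjusted p = 0.414). Hba-a2 averaged 518 ± 291 TPM against 972 ± 589 TPM, with -0.75 (95% interval -1.79 to 0.29, limma adjusted p = 0.481). Hba-a1 averaged 229.9 ± 154 TPM against 459 ± 320 TPM, with -0.84 (95% interval -2.02 to 0.34, limma adjusted p = 0.486). In each of these genes 2 of the 4 Nup210-/- libraries lay below every Nup210+/+ library, and the other 2 lay within their range.

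Alas2 averaged 5.66 ± 3.57 TPM under the Nup210-/- label and 9.94 ± 7.26 TPM under the Nup210+/+ label. Its log2 fold change was -0.54 (SE 0.49, 95% interval -1.64 to 0.56, limma adjusted p = 0.637, exact permutation p = 0.371). This was the estimate closest to 0 among the 5 genes.

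Across the members, 0 of 5 passed an adjusted p of 0.05, where 16 of all tested genes did (0.112%). At an unadjusted p of 0.05 the count was 0 of 5 against 14.2% of tested genes, and 0 of 5 separated the genotypes without overlap against 9.38%. All 5 estimates were below 0, as were 51.3% of those of tested genes, and their median of -0.80 stood beside a median of -0.01 over tested genes. The 5 genes were measured in the same libraries and varied together, so 5 estimates of 1 sign are not 5 separate observations. The exact permutation test over the 70 labelings of 4 against 4 cannot go below p = 0.0286.

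Nup210+/+ replicate 2 set much of the size of these estimates. Without it the log2 fold change was -0.44 for Hbb-bs, -0.50 for Hbb-bt, -0.40 for Hba-a2, -0.43 for Hba-a1 and -0.15 for Alas2. The ratio of mean TPM of the hemoglobin sum went from 0.518 to 0.722, and that of Alas2 from 0.569 to 0.840. Left out singly, Nup210-/- replicate 2 moved the estimates the other way, to -1.23 for Hba-a1 and -0.85 for Alas2. No member passed the adjusted threshold in any of these fits.

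**Figure D4:**
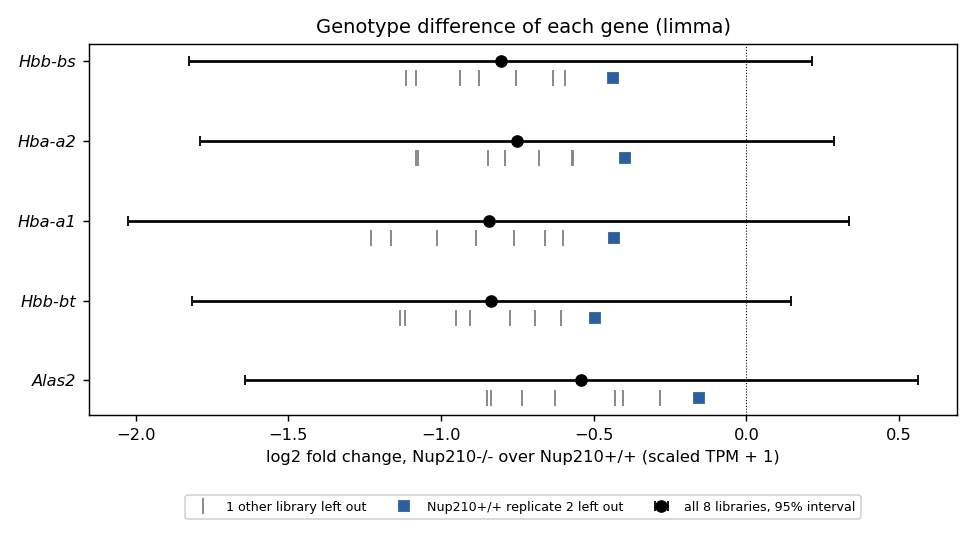
Log2 fold change of each gene (Nup210-/- over Nup210+/+, limma on log2(scaled TPM + 1)) with its 95% interval in black, and below it the estimates with 1 library left out (grey ticks; blue square, without Nup210+/+ replicate 2). All 5 intervals include 0, and the estimates without Nup210+/+ replicate 2, from -0.50 to -0.15, are the closest to 0.

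In bulk muscle, fewer red cells in a sample and less of their RNA per cell cannot be told apart. Muscle genes were measured in the same libraries. The summed TPM of 10 skeletal muscle genes, Mb among them, was 89346 to 94566 under the Nup210-/- label and 81591 to 85710 under the Nup210+/+ label, without overlap. However, 0 of the 10 passed the adjusted threshold, and 5 had an unadjusted p under 0.05, against 14.2% of all tested genes. The part of this muscle sum in the hemoglobin values was not tested.

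The embryonic and theta globins were listed at or near 0, and the globins of muscle fibers and connective tissue did not pass the test. Of the 6 embryonic and theta globin genes, Hba-x, Hbb-y, Hbb-bh1 and Hbb-bh2 were listed at 0 in every library, and Hbq1a and Hbq1b were listed at no more than 0.36 TPM. Mb, the oxygen-binding globin of muscle fibers, was 2660 to 3727 TPM under the Nup210-/- label and 2553 to 3547 TPM under the Nup210+/+ label, with a log2 fold change of 0.07 (limma adjusted p = 0.857). Hemoglobin TPM together exceeded Mb in 1 library, Nup210+/+ replicate 2, where the sums were 5285 and 2553 TPM. Cygb, a globin of connective tissue cells, was 11.3 to 20.9 TPM over the 8 libraries and had a log2 fold change of -0.11 (limma adjusted p = 0.753).

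Most other red cell genes were near 0 in the libraries rich in hemoglobin mRNA, as in the rest. Of 20 listed genes, 19 were found and 2, Sox6 and Nfe2, were abundant enough to be tested. The gene not matched was Ahsp, so its level is unknown here. Sox6, a transcription factor that muscle also expresses, held most of the sum. The other 17 together reached 1.21 to 2.22 TPM in a library, and the highest single value among them was 1.04 TPM, for Car1, a carbonic anhydrase. The defining markers were near 0: Slc4a1, the anion exchanger of the red cell membrane, was at most 0.15 TPM, and the erythroid transcription factors Klf1 and Gata1 were at most 0.26 and 0.27 TPM. Trim58 was listed at 0 throughout. The hemoglobin sum was 395 to 3802 times the sum of these 17 genes.

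The sum of the whole red cell list had no fixed relation to hemoglobin across libraries. It was 38.1 to 50.8 TPM in the libraries labelled Nup210-/- and 33.9 to 53.3 TPM in the others, and r with the hemoglobin sum was 0.25 (rho = 0.12, n = 8). This value changed sign with its contents and its libraries. It was 0.61 with genotype means removed (rho = 0.55) and 0.47 with TPM as deposited, whereas r was -0.60 when Sox6 and Nfe2 were left out, an alternative chosen after seeing the data, and -0.19 without Nup210+/+ replicate 2. Nfe2, a transcription factor of the red cell and platelet lineages, was 12.31 TPM in that library and at most 0.38 TPM in the other 7. None of the list passed the adjusted threshold, and Sox6 alone had an unadjusted p under 0.05 (log2 fold change 0.26, limma adjusted p = 0.223).

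Of 15 genes that reticulocytes share with other tissues, 14 were tested and 0 passed, with a median log2 fold change of 0.03. An unadjusted p under 0.05 was found for 2 of these genes, near the 14.2% over all tested genes. Their sums, 887 to 957 TPM and 883 to 954 TPM, were almost the same in the libraries labelled Nup210-/- and Nup210+/+. The highest estimate was that of Slc25a37, a mitochondrial iron importer, at 0.26 (limma adjusted p = 0.189). Bpgm, which makes the 2,3-bisphosphoglycerate that tunes hemoglobin's hold on oxygen, was 60.9 to 69.9 TPM in all libraries.

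The other heme synthesis genes were even across libraries while Alas2 varied, with sums of 409.7 to 432.9 TPM under the Nup210-/- label and 411.7 to 445.01 TPM under the Nup210+/+ label. Alas1, the counterpart of Alas2 used outside the red cell lineage, was 61.49, 63.68, 61.7 and 67.3 TPM in Nup210-/- replicates 1 to 4 and 59.33, 61.66, 70.05 and 66 TPM in Nup210+/+ replicates 1 to 4. It exceeded Alas2 in every library and its genotypes overlapped. Of 15 heme synthesis genes other than Alas2, 15 were tested and 0 passed, with a median log2 fold change of 0.08. An unadjusted p under 0.05 was found for 3 of them, all with a positive estimate, against 14.2% of all tested genes. Clpx, a mitochondrial chaperone that acts on Alas enzymes, had the highest estimate at 0.27 (limma adjusted p = 0.179), and Tmem14c, a mitochondrial porphyrin transporter, the lowest at -0.09 (limma adjusted p = 0.626).

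Of 16 genes of heme breakdown and hemoglobin clearance, 14 were tested and 0 passed, with a median log2 fold change of -0.20. In this list 10 estimates were below 0. An unadjusted p under 0.05 was found for 5 of these and 1 positive one, against 14.2% of all tested genes. Slc11a1, a metal transporter of macrophages, had the lowest estimate at -0.67 (limma adjusted p = 0.126). The heme exporter gene Flvcr1, named Mfsd7b in the table, had the highest at 0.45 (limma adjusted p = 0.223). Hmox1, the inducible heme oxygenase, was near 0 at -0.01 (limma adjusted p = 0.989).

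Genes of other blood cells and of vessels were examined in the same libraries. Of 12 platelet genes 4 were tested and 1 passed, Pf4, which encodes platelet factor 4 and is also made by macrophages. Pf4 was 23.14, 23.2, 24.12 and 21.72 TPM in Nup210-/- replicates 1 to 4 and 36.21, 33.85, 43.4 and 31.21 TPM in Nup210+/+ replicates 1 to 4. It was lower in every library labelled Nup210-/-, with a log2 fold change of -0.53 (SE 0.07, limma adjusted p = 0.0490). However, it lost the adjusted threshold in 16 of 21 alternatives, including each one that left out a library. Its log2 fold change stayed between -0.62 and -0.48 in these alternatives, with limma adjusted p of 0.0176 to 0.229. Over the list the sums were 24.5 to 27.8 TPM and 34.2 to 48.6 TPM in the libraries labelled Nup210-/- and Nup210+/+, without overlap. Their r with the hemoglobin sum was 0.51, and 0.14 with genotype means removed.

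Endothelial genes, which mark the vessels themselves, gave sums of 168.6 to 189.95 TPM in the libraries labelled Nup210-/- and 162 to 192.5 TPM in the others, with overlap. Of 12 tested, 0 passed and 3 had an unadjusted p under 0.05, against 14.2% of all tested genes. Between Cldn5 at -0.24 and Esam at 0.41, the 12 endothelial genes had a median log2 fold change of 0.02. Their r with the hemoglobin sum was -0.77 (rho = -0.64, n = 8) after scaling, -0.22 with TPM as deposited and -0.36 without the 2 farthest libraries, so its size rested on the scaling and on those libraries.

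The neutrophil and granulocyte precursor sums were highest in a single library. The lymphocyte sums did not overlap between the genotypes in TPM as deposited, but they did after scaling. Of 8 blood neutrophil genes 3 were tested and 0 passed at either threshold, with sums of 2.96 to 6.04 TPM in the libraries labelled Nup210-/- and 3.15 to 21.3 TPM in the others. The high value was that of Nup210+/+ replicate 2, and r with the hemoglobin sum went from 0.66 with it to -0.05 without it. For the 6 granulocyte precursor genes r went from 0.68 to -0.11, with 0 of 6 passing at either threshold. Of 10 lymphocyte genes 3 were tested and 0 passed, with 1 at an unadjusted p under 0.05, against 14.2% of all tested genes. The lymphocyte sums were 60.5 to 71.97 TPM under the Nup210-/- label and 83.6 to 176.3 TPM under the other, without overlap. Most of each sum was Ighm and Igkc, an immunoglobulin heavy chain and a light chain. Ighm overlapped between the genotypes, at 53.6 to 66.9 TPM under the Nup210-/- label and 62.8 to 88.9 TPM under the Nup210+/+ label. Igkc did not, at 4.68 to 7.64 TPM against 8.95 to 85.79 TPM, and had the lowest estimate at -2.18 (limma adjusted p = 0.189). Of 12 proliferation genes 11 were tested and 0 passed at either threshold.

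**Figure D5:**
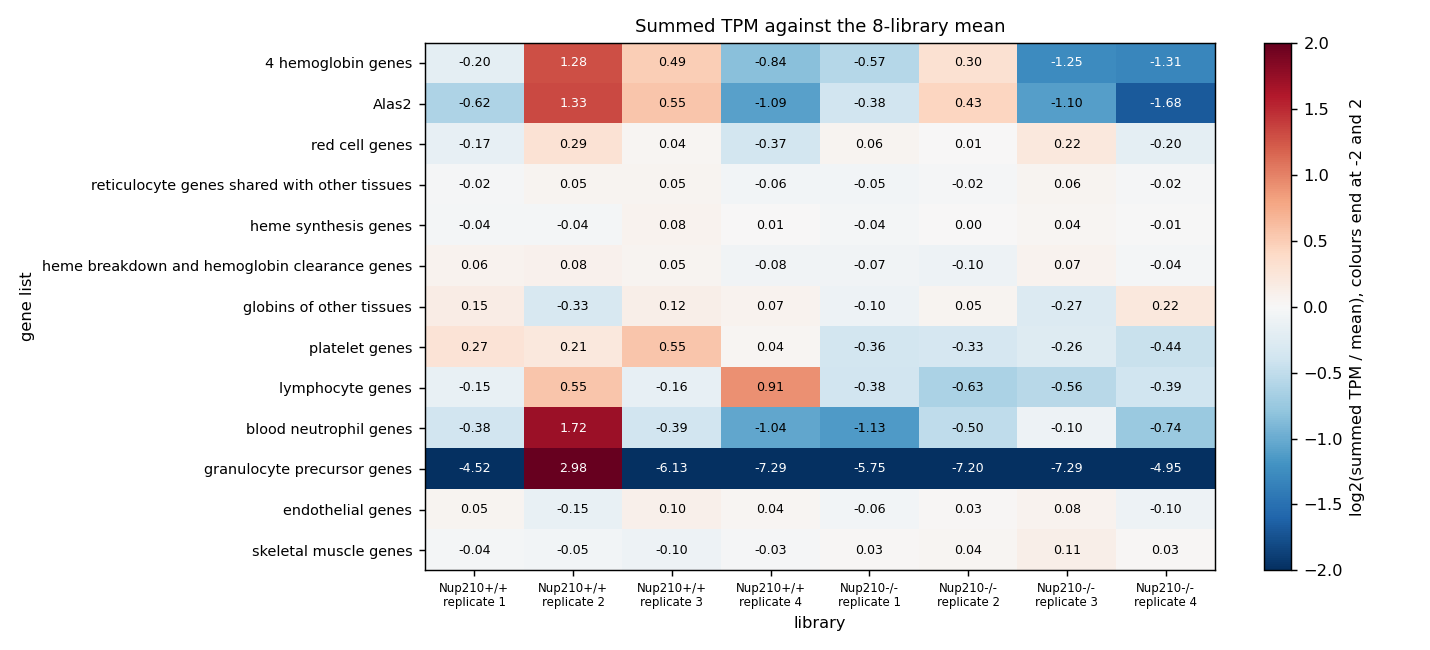
Summed TPM of each gene list (rows) in each library (columns) as log2 of its ratio to the mean over the 8 libraries, printed in each cell and colored from blue (below the mean) to red (above). The hemoglobin and Alas2 rows change together from library to library, from -1.31 to 1.28 for hemoglobin, while the heme synthesis row stays between -0.04 and 0.08.

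The genes most like the 4 hemoglobin genes were sought among 12657 genes with a mean of at least 1 TPM, by Pearson correlation of log2 values over the 8 libraries with the mean centred hemoglobin profile. Alas2, with r = 0.97, would stand in place 3 of this order. The 10 nearest genes were Swap70 (r = 0.99), Gm7964 (0.98), Emc8 (0.96), Coro1b (0.95), Efhd2 (0.95), Atf6b (0.95), Nucb2 (0.95), Wdr36 (0.95), Gda (0.94) and Cog5 (0.94). None of them belongs to the lists above. Their r without Nup210+/+ replicate 2 was 0.90 to 0.98. They moved far less than hemoglobin, with slopes of 0.14 to 0.38 log2 units per log2 unit of the hemoglobin profile, and Swap70, for example, lay between 3.83 and 7.90 TPM. The list is a description, since a search over this many genes returns high correlations.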

How the data were processed

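RNA from the quadriceps of 8 mice was sequenced by the authors after polyA selection, with directional libraries read from 1 end. Per the submitters' processing notes, cutadapt 2.3, STAR 2.7.0d and RSEM 1.3.1 were used with mm10. The authors deposited TPM per gene and library, without pooling, so depth is unknown. TPM depend on everything else in a library. The study's DESeq2 test on estimated counts was not used here because it needs counts.

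TPM were scaled per library by the median of ratios over 15225 genes above 0 in all libraries (factors 0.936 to 1.12). The 14229 genes with a mean of at least 0.5 TPM were tested on log2(scaled TPM + 1) with limma 3.58.1 in R 4.3.3 (eBayes with trend, genotype as the only term, Benjamini-Hochberg adjustment), beside two-sided exact permutation tests. The p-values weigh a difference between genotypes against the spread between mice, which limma moderates over all tested genes. The analysis was tested on simulated data in which genes varied independently and no library stood apart. That setting does not cover genes that vary together, as the 5 genes here did. The genes and lists were chosen with earlier results of these data known. Named were the 5 genes with every value, Nup210, from each other list the genes past an adjusted p of 0.05 and the highest and lowest estimates, and the 10 genes most like hemoglobin. A gene that this rule names is not reported here. Genes named beyond these, among them the defining red cell markers and genes named to say what a list holds, were chosen after their values were seen. Lists are described by counts, medians and sums. Sequences, coordinates and exons came from GENCODE M21 and RefSeq tables on GRCm38, and all 5 genes matched both. No 2 libraries were near duplicates (at most 201 equal TPM between 2 of them). Alternatives covered pseudocount, filter, scaling, variance model, library weights, replicate block, summed gene pairs and each library left out.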

Additional observations from a re-analysis of the deposited data

Results flagged for a closer look

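In 6 of 50 groups of 4 libraries examined, 1 library lay far from the other 3 by Dixon's criterion. Chance would give about 2.5 such groups if groups were independent and normally distributed. Here the groups share libraries, genes that vary together and values at 0, so no conclusion is drawn from that number. Among the ratios, Alas2 per 1000 hemoglobin TPM was 2.78 in Nup210-/- replicate 4, against 3.93 in the nearest library of its genotype. The summed TPM of the embryonic and theta globins was 0.16 in Nup210-/- replicate 2 and 0 in the other 3. In Nup210+/+ replicate 2 the neutrophil genes summed to 21.3 TPM against 4.98 in the next library, the granulocyte precursor genes to 381.69 TPM against 2.12, and the proliferation genes to 109.32 TPM against 28.14. The muscle genes summed to 94566 TPM in Nup210-/- replicate 3, against 89624 in the next library labelled Nup210-/-. Hemoglobin and Alas2 TPM themselves were not among these groups, although Nup210+/+ replicate 2 was the highest library for all 5 genes.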

How the results depend on the processing

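All 5 genes kept a negative estimate and stayed short of the adjusted threshold under every alternative run. Leaving out 1 library gave log2 fold changes of -1.12 to -0.44 for Hbb-bs, -1.14 to -0.50 for Hbb-bt, -1.08 to -0.40 for Hba-a2, -1.23 to -0.43 for Hba-a1 and -0.85 to -0.15 for Alas2, and the lowest limma adjusted p in any alternative was 0.215, for Hbb-bt. Library weights gave -0.25 for Alas2. With the replicate number as a block, Hbb-bs stayed at -0.80 (limma adjusted p = 0.297, unadjusted p = 0.0106), but same-numbered libraries deviated together with correlations of only -0.03 to 0.09, libraries did not all correlate best with their own number, and the numbers were not taken to pair mice.

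The count of genes past the adjusted threshold was unstable: 16 as reported, 1 with every gene above 0 TPM tested, 0 with a mean of at least 0.1 TPM, 27 with at least 1 TPM, 0 with upper-quartile scaling, 0 without the variance trend, 84 with library weights, 0 with the replicate block, and 0 to 10 with a library left out. At an unadjusted p of 0.05 the settings with 0 gave 2244, 2014, 1952 and 1850 genes in that order. Genes without overlap numbered 1334, and 1747 to 2615 with 1 library left out, where fewer values must separate.

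Over the relations with the hemoglobin sum, leaving out 1 library gave r of -0.88 to -0.47 for endothelial, -0.054 to 0.790 for neutrophil, -0.11 to 0.78 for granulocyte precursor and -0.19 to 0.60 for red cell genes. The granulocyte precursor r was -0.41 without the 2 farthest libraries, and the red cell r was -0.60 without Sox6 and Nfe2, where the cause was not tested. The relations of alpha with beta genes and of hemoglobin with Alas2 stayed at r of 0.94 or more. Depth is unknown, which limits most what can be said of Alas2 and of genes listed near 0.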
